A study of Homo sapiens with 32 samples.

Results

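Replication-dependent histone genes were followed across all 26 RNA libraries of a study that deleted distal elements in 2 human cell lines. They were taken by symbol, as genes named H1-, H2AC, H2BC, H3C or H4C with a number and with an older name beginning HIST, with pseudogenes and antisense genes left out. Of the 57820 genes counted in each HCT116 file, 54 symbols with such a prefix were considered and 17 were pseudogenes or antisense genes. Of the other 37, 33 were replication-dependent histone genes and 4 were other genes of the same prefixes (H1-10, H1-7, H1-8 and H2BC12L), which are given apart. The 33 genes were 6 linker histone H1 genes, 8 H2A, 10 H2B, 5 H3 and 4 H4 genes, 23 on chromosome 6, 9 on chromosome 1 and 1 on chromosome 12. NCBI's RefSeq table holds 69 protein-coding human genes with such names, and 36 of them matched no gene ID of the files and were not analysed here.

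Histone proteins package DNA into nucleosomes, with H2A, H2B, H3 and H4 forming the core and H1 binding the linker. Replication-dependent histone genes are switched on in S phase, when new DNA needs new histones, and their mRNAs normally end in a stem-loop bound by SLBP instead of a poly(A) tail. Some of them, including H2BC12, H2BC5, H2AC6, H2BC21 and H1-2, are also known to make polyadenylated transcripts. The TruSeq kit used here selects RNA by its poly(A) tail and so favours the polyadenylated form. Replacement histones such as H1-10 and H2AJ are made outside S phase too, from ordinary polyadenylated mRNAs.

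HCT116, a human colorectal cancer line, gave 22 libraries, and HEK293, a human embryonic kidney line, gave 4. All libraries came from clonal populations grown out of single sorted cells that had received Cas9-GFP, the controls with an empty guide vector and the deletion clones with guides against an element named E7, 18qNE or 18qE. The E7 deletion in HCT116 was a single clone with RNA taken on days A, B and C, and 18qNE was deleted in 3 clones, sampled on days A, B and A. Their controls were 4 HCT116 clones with RNA of all 3 of these days. The 18qE deletion was carried by 2 HCT116 clones of day D, set against control clones 1 and 2 of the same day. In HEK293, the E7 deletion had 2 libraries of day E, which the clone label gives as the same clone, against 2 control clones of day E. Cells were grown in DMEM with serum to 80% confluence, and the letters A to E name days of RNA extraction. The labels name no target gene, so no targeted gene was checked here, and the 6 chromatin immunoprecipitation samples were not analysed here.

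Libraries of days A, B and C held 9871667 to 14862268 counts on genes, those of day D 22972412 to 24887785 and those of HEK293 26491576 to 34790193. In HCT116 the epithelial markers EPCAM, KRT8, KRT18, KRT19, CDH1 and CDX2 were present, while CDX1, VIL1, LGALS4 and CEACAM5 were at or near 0. The HEK293 libraries had 709 to 831 CPM of VIM and 146 to 190 CPM of CDH2 (CPM, a gene's counts scaled to the same library total), against 0.0433 to 26.0 and at most 0.0871 CPM in HCT116. PTPRC, CD3E, CDH5 and COL1A2, markers of leukocytes, endothelium and fibroblasts, stood at 0.0726 CPM or below in every HCT116 library, and COL1A1 at 10.4 to 29.3 CPM. The HCT116 files hold 12 of 20 listed RNAs known to lack a poly(A) tail, which summed to 1.32 to 2.47 CPM in every HCT116 library.

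The stretches between 4 head-to-head gene pairs and the promoters of 3 single genes are shown because these genes carry most counts of the 33 genes. Many H2A and H2B genes lie head to head with a shared promoter, and 6 such pairs among the 33 genes have 214 to 247 bases between their RefSeq starts. Each pair stretch below lies between the starts of the named genes and is written on the strand of the H2A gene. Its left end is next to the H2B start and its right end next to the H2A start. Each single promoter covers the 250 bases before the start. All are from RefSeq in the assembly GRCh38.p14 (the counts were made on hg19, so names and not coordinates join them). Capitals mark a TATA box written as TATAAA on either strand, a CCAAT box on either strand, and on either strand the octamer ATTTGCAT.
H2AC6 to H2BC4, chr6:26123927-26124171, + strand: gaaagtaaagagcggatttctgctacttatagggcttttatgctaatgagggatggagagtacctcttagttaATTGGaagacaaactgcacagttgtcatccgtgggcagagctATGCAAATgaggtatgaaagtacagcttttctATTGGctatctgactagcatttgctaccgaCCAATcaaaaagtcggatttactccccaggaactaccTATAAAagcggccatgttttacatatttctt
H2AC11 to H2BC11, chr6:27132796-27133042, + strand: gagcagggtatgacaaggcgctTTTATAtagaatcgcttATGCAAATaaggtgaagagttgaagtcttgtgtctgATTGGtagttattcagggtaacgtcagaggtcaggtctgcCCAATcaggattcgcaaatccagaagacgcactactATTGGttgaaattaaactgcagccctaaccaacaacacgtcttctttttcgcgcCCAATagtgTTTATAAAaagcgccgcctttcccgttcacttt
H2AC20 to H2BC21, chr1:149886683-149886917, + strand: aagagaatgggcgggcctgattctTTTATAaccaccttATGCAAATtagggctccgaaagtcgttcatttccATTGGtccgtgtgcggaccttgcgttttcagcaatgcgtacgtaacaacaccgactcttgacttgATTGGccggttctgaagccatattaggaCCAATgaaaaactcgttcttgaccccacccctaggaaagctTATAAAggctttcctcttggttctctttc
H2AC25 to H2BC26, chr1:228457874-228458102, - strand: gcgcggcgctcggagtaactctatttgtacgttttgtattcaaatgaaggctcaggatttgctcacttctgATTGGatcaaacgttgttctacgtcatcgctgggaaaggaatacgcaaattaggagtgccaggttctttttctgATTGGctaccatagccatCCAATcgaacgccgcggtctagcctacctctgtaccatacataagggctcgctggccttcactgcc
H2BC12, chr6:27146859-27147108, - strand: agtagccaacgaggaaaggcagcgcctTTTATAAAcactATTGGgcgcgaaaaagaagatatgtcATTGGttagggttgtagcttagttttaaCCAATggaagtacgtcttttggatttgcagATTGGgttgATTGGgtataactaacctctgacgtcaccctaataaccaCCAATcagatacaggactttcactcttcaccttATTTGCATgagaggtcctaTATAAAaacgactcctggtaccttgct
H2BC5, chr6:26157871-26158120, + strand: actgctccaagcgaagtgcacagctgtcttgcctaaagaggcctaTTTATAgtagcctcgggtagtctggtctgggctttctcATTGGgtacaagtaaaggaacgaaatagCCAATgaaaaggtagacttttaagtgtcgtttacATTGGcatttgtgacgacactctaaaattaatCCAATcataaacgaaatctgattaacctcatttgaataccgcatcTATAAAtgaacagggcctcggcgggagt
H1-2, chr6:26056471-26056720, - strand: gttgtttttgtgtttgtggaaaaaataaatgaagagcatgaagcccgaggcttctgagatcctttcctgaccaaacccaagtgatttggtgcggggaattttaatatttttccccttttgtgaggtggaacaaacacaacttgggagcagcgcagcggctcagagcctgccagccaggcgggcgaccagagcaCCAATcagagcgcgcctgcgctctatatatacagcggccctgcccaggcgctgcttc

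RefSeq gave a promoter for 31 of the 33 genes. TATAAA stood in the 250 bases before the start of 21 of the 31, against 11.1% of 27305 human promoters of the same length (1 per gene, chromosome 8 left out). CCAAT stood in 28 of the 31, against 33.0%, with all 6 H1, 8 H2A, 10 H2B and 4 H3 promoters and none of the 3 H4 promoters holding it. The octamer, known as an element of H2B promoters, stood in 6 of 10 H2B, 6 of 8 H2A and 1 of 4 H3 promoters and in no H1 or H4 promoter, against 1.66% of all. In 3 promoters TATAAA overlapped its own complement on the other strand, as TTTATAAA, and no other pair of these motifs overlapped. Genes of a head-to-head pair, with 214 to 247 bases between their starts, share most of these 250 bases. A site between them counts for both genes, so the 31 promoters are not independent. These matches describe the letters only.

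Histone counts in HCT116 came from a few genes. The 33 genes had 11548 counts in all over the 22 libraries, and 6 genes held 82.3% of them. H2BC12, an H2B gene, had 3500 counts, 30.3% of the sum. H1-2, a linker histone gene, had 1891, H2AC6 had 1302, H2AC25 1206, H2BC5 1043 and H2AC11 557 counts. The next 6 were H2BC15 with 388, H2BC21 with 333, H2AC20 with 281, H1-4 with 256, H2BC4 with 171 and H2BC11 with 125 counts. The remaining 21 genes had under 100 counts each over all 22 libraries, and 6 of them (H1-1, H1-5, H2AC1, H2BC1, H3C14 and H3C15) had 0. H1-1 and H2AC1 with H2BC1 are known as genes of restricted expression, the last 2 in testis. H3C14 and H3C15 are near-identical copies whose reads may align in several places and then go uncounted, and other family members share sequence to a lesser degree.

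By class, H2B genes held 49.4% of the counts of the analysed genes, H2A genes 29.5%, H1 genes 18.7%, H4 genes 1.35% and H3 genes 1.06%. Classes were not covered alike. The analysed genes were 6 of 6 RefSeq H1 genes, 8 of 17 H2A, 10 of 18 H2B, 5 of 13 H3 and 4 of 15 H4 genes. Most H3 and H4 genes are therefore outside these shares. Scaled by gene length, H1-2 averaged 7.83, H2AC6 7.66, H2AC25 7.07 and H2AC11 3.51 CPM per kilobase of gene over the 22 libraries. The replacement histone gene H1-10, by the same measure, averaged 113 CPM per kilobase. H2BC12, H2BC5 and H2BC4 have annotated spans of 8566, 13229 and 10757 bases, beyond the 389 to 797 bases of most of the others, so no level per length is given for them. H1-7 and H2BC12L had 4 and 6 counts over the 22 libraries and H1-8 had 0.

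In an HCT116 library the 33 analysed genes together took 0.00212% to 0.00524% of all counts on genes. The summed level was 30.7, 23.7 and 21.2 CPM in the E7 clone on days A, B and C. It was 37.8 and 32.0 CPM in the 18qNE clones of day A and 27.5 CPM in that of day B. Control clones 1 to 4 had 42.2, 39.3, 52.4 and 48.3 CPM on day A. They had 25.3, 26.3, 28.8 and 35.0 CPM on day B, and 35.7, 31.6, 35.6 and 33.9 CPM on day C. On day D the 18qE clones had 27.7 and 40.2 CPM, against 48.7 and 46.3 CPM in the controls.
Every deletion library but that of 18qNE clone 2 lay below all controls of its own day. Bulk libraries cannot tell fewer cells with a transcript from less of it per cell.

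**Figure D1:**
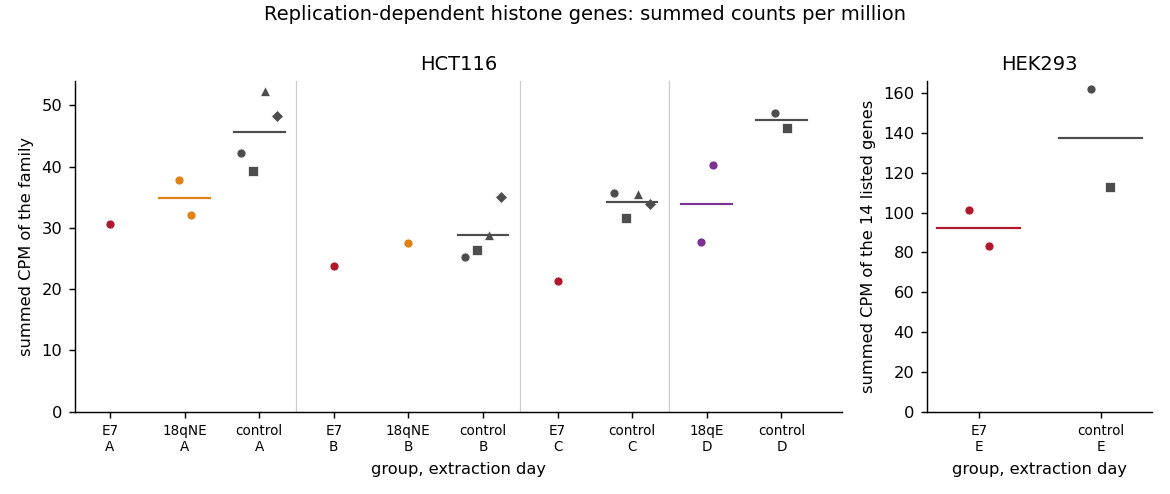
Summed CPM of the 33 replication-dependent histone genes per HCT116 library (left) and of the 14 listed genes per HEK293 library (right), by group and extraction day. Control markers stand for clones 1 (circle), 2 (square), 3 (triangle) and 4 (diamond), deletion libraries are circles, and lines are group means where a group has more than 1 library. The E7 clone, at 30.7, 23.7 and 21.2 CPM, lies under every control of its day, and control libraries are highest on days A and D.

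The question for E7 in HCT116 was whether its deletion changes gene expression. Across days A to C, the E7 libraries averaged 25.2 ± 4.89 summed CPM (SD over 3 libraries of a single clone) and the control libraries 36.2 ± 8.29 (SD over 12 libraries of 4 clones), a ratio of 0.697. The H1, H2A and H2B sums were each under all 4 controls on all 3 days. The small H3 and H4 sums were not. In the E7 clone the H3 sum was above all controls on day B (0.562 against 0.249 to 0.310 CPM) and below all on day C. The H4 sum was above all controls on day A (1.01 against 0.290 to 0.554 CPM) and within their range on days B and C. With the 3 days of each clone added up, 16 of the 33 genes had enough counts to be tested and none passed an adjusted p of 0.05 in edgeR's quasi-likelihood test, where 13.9% of 17664 genes passed. An unadjusted edgeR p under 0.05 was reached by 6 of the 16, and by 5252 of all 17664 genes. DESeq2 called 1 of 14, where it called 17.7% of all genes. The median log2 change of the 16 was -0.42, with 13 below 0, against -0.01 over all genes tested. It was -0.26 without day A and -0.27 without day C.

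H1-2 had 3.70, 3.44 and 3.66 CPM in the E7 clone on days A, B and C, against 4.43 to 7.17, 3.98 to 5.60 and 4.82 to 9.44 CPM in the 4 controls. Its E7 level hardly moved between days and lay under all controls each day. The log2 change was -0.71 with a standard error of 0.29 (edgeR adjusted p = 0.154).
H2BC12 had 8.95, 5.83 and 6.01 CPM in the E7 clone, against 11.5 to 15.9, 6.38 to 11.2 and 7.95 to 9.92 CPM in the controls. Here too each E7 library was lowest of its day, with a log2 change of -0.55 and a standard error of 0.18. The edgeR adjusted p was 0.0846 and that of DESeq2 0.04998, the only DESeq2 call among the 33 genes in this comparison.
H2BC5 had 2.89, 1.97 and 1.92 CPM in the E7 clone, against 3.77 to 6.88, 2.12 to 3.24 and 2.45 to 3.24 CPM in the controls. It followed the same order, with a log2 change of -0.63 and a standard error of 0.23 (edgeR adjusted p = 0.117).
In a fit on single libraries that kept days apart as blocks, H1-2, H2BC12 and H2BC5 passed, at edgeR adjusted p of 0.013, 0.00504 and 0.023. These were 3 of 10 genes tested there, where 34.8% of 14869 genes passed, so the family's share was near that of all genes. That fit counts libraries of the same clone as separate samples. With libraries of a clone added up, H2AC6, H2AC25 and H2AC11 changed by -0.43, -0.42 and -0.53 (log2) and did not pass.

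The largest changes belonged to genes with few counts. H2BC18 had 0, 0.141 and 0.0871 CPM in the E7 clone against 0.0849 to 0.608 CPM in the 12 control libraries (log2 change -1.80, standard error 0.76). H4C16, the member on chromosome 12, had 1.01, 0.351 and 0.0871 CPM in the E7 clone against 0 to 0.664 CPM (log2 change 1.15, standard error 0.48). H2AC13 had 0, 0.141 and 0.0871 CPM in the E7 clone against 0 to 0.405 CPM (log2 change -1.08, standard error 0.88). Against controls of the same day, H2BC18 in the E7 clone was below all 4 on days A and C, H4C16 was above all on day A, and H2AC13 lay within their range each day.
The next 6 genes by counts differed in where the E7 clone lay. H2BC15 had 1.08 to 1.19 CPM in the E7 clone over the 3 days, against 0.594 to 1.90 CPM in the 12 control libraries, and H2BC21 had 0.522 to 1.14 CPM against 0.679 to 2.13 CPM. H2AC20 had 0.421 to 1.08 CPM in the E7 clone against 0.498 to 1.58 CPM, and H1-4 had 0.336 to 0.843 CPM against 0.332 to 1.92 CPM. H2BC4 had 0.261 to 0.606 CPM in the E7 clone against 0.155 to 1.23 CPM, and H2BC11 had 0.348 to 0.538 CPM against 0.156 to 0.726 CPM. Against the 4 controls of the same day, H1-4 was below all on days A and C, and H2AC20 on days B and C. H2BC21 was above all on day B and below all on day C, H2BC4 was below all on day C, and H2BC11 was above all on day B. H2BC15 lay within the controls' range on all 3 days.

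**Figure D2:**
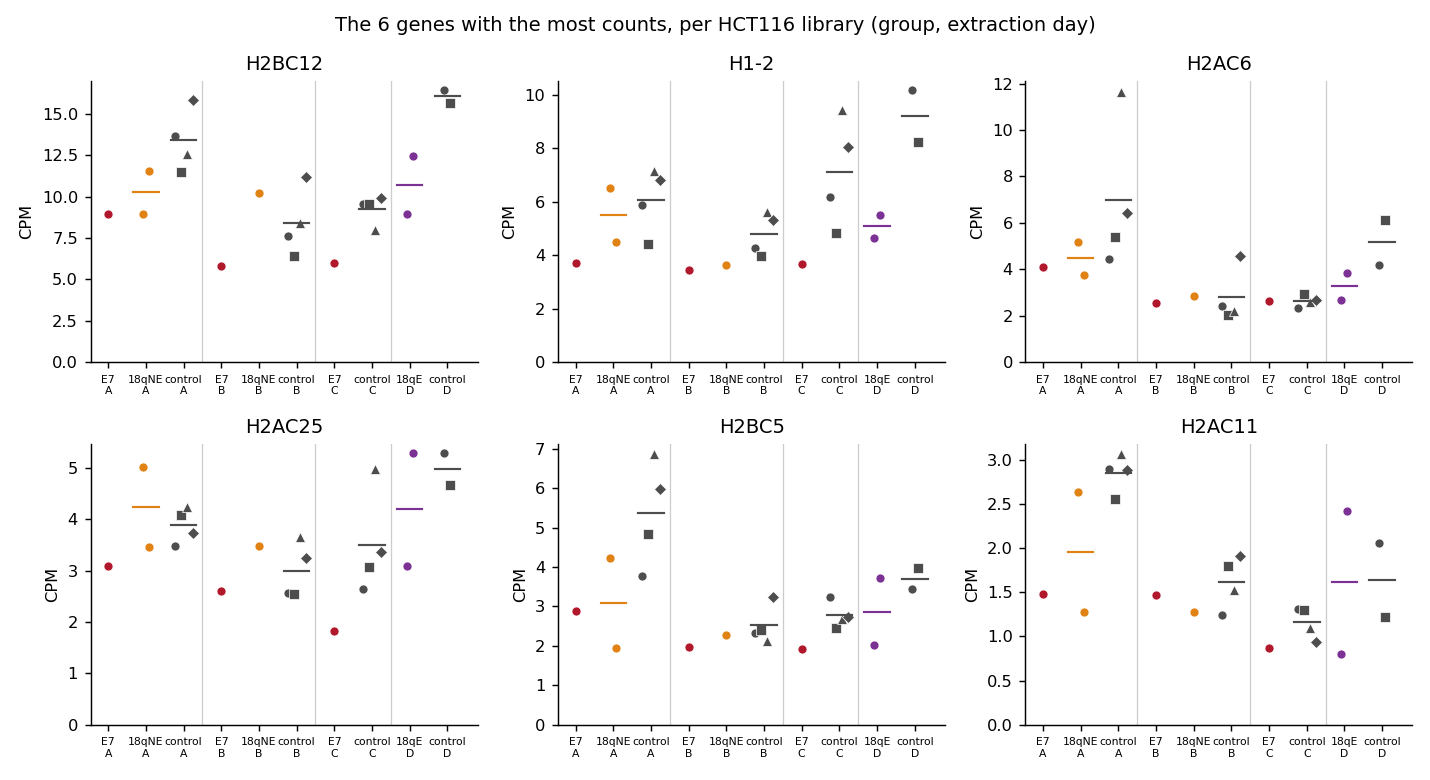
CPM of the 6 genes with the most counts in each HCT116 library, by group and extraction day. Control markers stand for clones 1 (circle), 2 (square), 3 (triangle) and 4 (diamond), deletion libraries are circles, and lines are means. H2BC12, H1-2 and H2BC5 of the E7 clone lie under all controls on days A, B and C, and H2AC6, H2BC5 and H2AC11 of the controls are highest on day A.

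Some replacement histones, which have far more counts than the family, passed the test in E7. H1-10 had 135, 146 and 123 CPM in the E7 clone on days A, B and C, against 141 to 219, 163 to 184 and 173 to 184 CPM in the controls, and fell by 0.41 on the log2 scale (edgeR adjusted p = 0.0407). H2AJ, an H2A variant, fell by 0.74 (edgeR adjusted p = 0.0198). Of the 11 tested replacement histone genes given here, these 2 passed (18.2%), both downwards. H1-10 lost its call without control clone 1 or 2, day A or day C, and H2AJ without control clone 1 or 2.

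In E7, 1 of 18 tested genes of histone mRNA processing (5.56%) and 4 of 16 histone chaperone genes (25%) passed, where 13.9% of all genes did. Of the 18 genes of histone mRNA processing and histone gene transcription, ERI1, an exonuclease that trims histone mRNA ends, fell by 0.83 on the log2 scale (edgeR adjusted p = 0.0418) and none rose. SLBP changed by -0.25 and NPAT, the coactivator of histone genes at S phase, by -0.09 (log2), and neither passed. Of 22 S phase genes 1 fell, MCM6, a subunit of the replicative helicase, by 0.42, and PCNA changed by -0.11 without passing. The S phase list summed to 4436, 4994 and 5160 CPM in the E7 clone on days A, B and C, against 3976 to 5063, 5167 to 5561 and 5342 to 5696 CPM in the controls, so it lay below them on days B and C. Of 12 genes of cell cycle exit, 3 CDK inhibitor genes (25%) rose, CDKN2D by 0.90, CDKN2C by 0.78 and CDKN1B by 0.61. That list summed to 509, 438 and 443 CPM in the E7 clone, against 444 to 620, 319 to 358 and 343 to 392 CPM, above the controls on days B and C. Of the histone chaperone genes, HJURP, ATRX and CABIN1 rose by 0.47, 0.39 and 0.29, and TONSL fell by 0.74. Among 14 tested non-histone genes lying between the histone genes of chromosome 6, ZNF391 fell by 2.25 and ZNF184 rose by 0.59.
In the same comparison VIM, of the HEK293 marker list, rose to 26.0, 21.8 and 18.1 CPM in the E7 clone, against 0.155 to 1.61 CPM in the controls, while DPYSL3 and GATA3 fell. That list summed to 31.3 to 45.8 CPM in the E7 clone and 79.6 to 110 CPM in the controls, with NEFM at 0 in both. Of the epithelial list, KRT19 rose and CDH1 fell, and its sum was 4246 to 5797 CPM in the E7 clone and 3827 to 6451 CPM in the controls. The part of any of these differences in the histone values was not tested.

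The same question was asked of 18qNE and 18qE. In 18qNE, 11 of the 33 genes were tested and none passed. No gene of 15524 passed in this edgeR comparison (0.0%), with 505 at an unadjusted p under 0.05, none of them a histone gene of the family. DESeq2 called 13 genes and none of the family. The summed level averaged 32.4 ± 5.15 CPM (SD, n = 3 clones) in 18qNE libraries and 37.2 ± 10.1 CPM (SD over 8 libraries of 4 clones) in controls of days A and B. The median log2 change of the 11 was -0.33, with 10 below 0, against 0.01 over all genes. Without 18qNE clone 2 it was -0.10. Days were not balanced here, since 18qNE had days A, B and A and each control clone had both A and B. Control libraries averaged 45.6 summed CPM on day A and 28.9 on day B. In a fit on single libraries with the day as a term the median was -0.42. The control clones were those used for E7.
H2AC20, an H2A gene on chromosome 1, had 0.213 CPM in 18qNE clone 2 and up to 0.703 CPM in the other clones, against 0.498 to 1.58 CPM in controls of days A and B, so 1 of the 3 clones lay below all of them. Its log2 change was -0.89 with a standard error of 0.44. H2BC5 and H2BC21 changed by -0.49 and -0.44, with standard errors of 0.29 and 0.32. H2BC12, at 8.96, 10.2 and 11.6 CPM in the 18qNE clones, changed by -0.07. H1-2 had 6.50 and 4.50 CPM in the 18qNE clones of day A, against 4.43 to 7.17 CPM, and 3.62 CPM in that of day B, against 3.98 to 5.60 CPM. H2AJ, SLBP, NPAT and PCNA changed by -0.04, -0.01, 0.11 and -0.09, and no gene of the other lists passed. The S phase list summed to 3890 to 5220 CPM in the 18qNE clones of day A, against 3976 to 5063 CPM, and to 5068 CPM in that of day B, against 5167 to 5561 CPM.

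In 18qE, 12 genes were tested and none passed, as for all 15261 genes tested (0.0%). At an unadjusted p under 0.05 there were 391 genes, of which 2 were histone genes of the family, and DESeq2 called 20 genes and none of the family. The summed level averaged 34.0 ± 8.82 CPM in 18qE clones and 47.5 ± 1.70 CPM in the day D controls (SD, n = 2 each), a ratio of 0.715. The median log2 change of the 12 was -0.33, with 11 below 0, against 0.00 over all genes. Without 18qE clone 1 the median was -0.02, and without 18qE clone 2 it was -0.78.
H1-2 had 4.66 and 5.50 CPM in the 18qE clones, against 10.2 and 8.23 CPM in the controls. These values do not overlap, and the log2 change was -0.83 with a standard error of 0.25 (unadjusted model p = 0.0127 in edgeR, adjusted p = 0.9999). H2BC12 had 8.92 and 12.4 CPM in the 18qE clones, against 16.5 and 15.7 CPM, with a log2 change of -0.56 and a standard error of 0.23. H2AC6 had 2.65 and 3.85 CPM against 4.16 and 6.14 CPM, with a change of -0.64 and a standard error of 0.33. In these 3 genes 18qE clone 1 was the lower of the pair. H2AC25 in 18qE clone 2, at 5.28 CPM, was level with control clone 1 at 5.30 CPM. H2AJ, SLBP, NPAT and PCNA changed by -0.12, 0.03, 0.11 and -0.11, and no gene of the other lists passed. The S phase list summed to 5105 to 5430 CPM in 18qE clones and 5549 to 5612 CPM in controls, and its part in the histone values was not tested.

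The HEK293 files list 11887 genes, and 14 of the 33 histone genes are among them, with counts in all 4 libraries. Summed over these 14, the E7 libraries had 101 and 83.3 CPM, against 162 and 113 CPM in the controls. On the same list of genes the 14 HCT116 control libraries had 23.7 to 50.8 CPM. Both HEK293 controls lay above every HCT116 control for 9 of the 14 genes. Only genes listed in the HEK293 files enter this count, so members low in HEK293 may be missing from it. The same count over all listed genes was not made. H2BC12 had 74.6 and 42.1 CPM in HEK293 controls against 6.58 to 17.0 CPM in HCT116 controls. H2AC25 had 27.7 CPM in both HEK293 controls against 2.63 to 5.47 CPM. H1-2 had 22.8 and 15.8 CPM against 4.10 to 10.5 CPM. H4C8, an H4 gene, had 4.46 and 2.98 CPM in HEK293 controls, against 0 to 0.237 CPM in HCT116 controls, where it had 22 counts in all 22 HCT116 libraries together. H2BC5 ran the other way round in its medians, with a mean of 3.08 CPM in HEK293 controls and a median of 3.35 CPM in HCT116 controls, and the lines overlapped. These levels are a description, since the lines were sampled on different days and deposited with different gene lists.

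**Figure D3:**
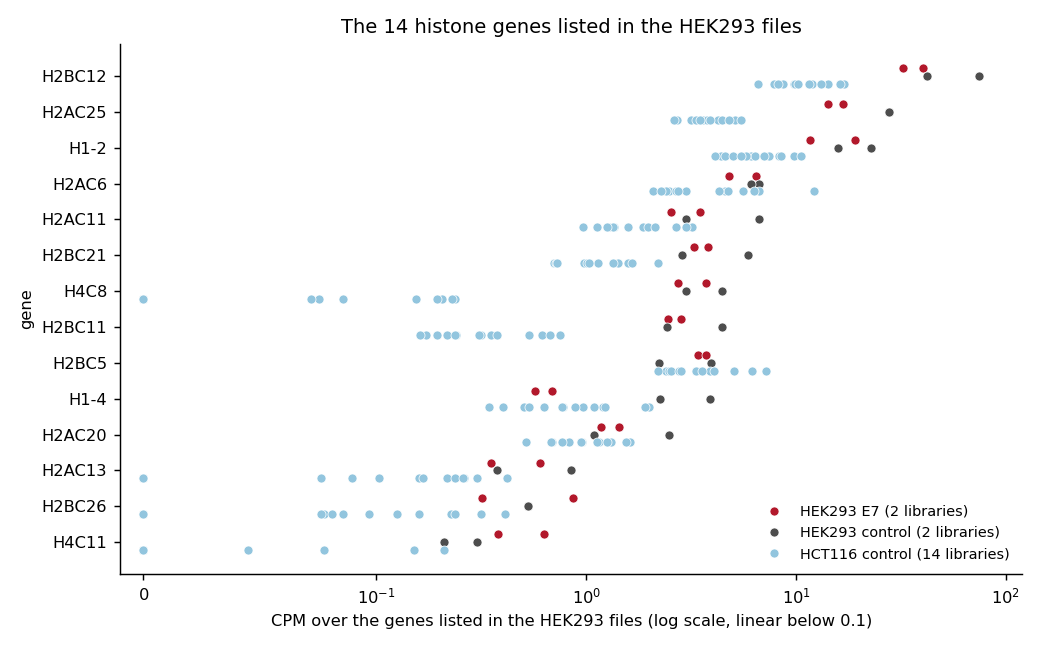
CPM of the 14 histone genes listed in the HEK293 files in each HEK293 E7, HEK293 control and HCT116 control library, over the genes those files list, on a log axis that is linear below 0.1. For 9 of the 14 genes, among them H2BC12, H2AC25 and H4C8, both HEK293 controls lie above all 14 HCT116 controls. No such count was made over all listed genes. H1-4 of the HEK293 E7 libraries lies below both HEK293 controls.

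The E7 deletion in HEK293 was set against its 2 controls. The 14 genes averaged 92.2 ± 12.6 summed CPM in E7 libraries (SD over 2 libraries labelled as the same clone) and 137 ± 34.9 CPM in controls (SD, n = 2 clones), a ratio of 0.671. All 14 were tested and none passed in edgeR, where 3 of 11806 genes (0.0254%) passed. Unadjusted edgeR p under 0.05 was reached by 2 of the 14, and by 1487 of all 11806 genes. DESeq2 called 2 of the 14, where it called 3.82% of all genes. Both fits count the E7 libraries as separate samples. With them added up as 1 clone, none of the 14 passed in edgeR and 71 of 11817 genes (0.601%) did, against 3 genes with them apart. The median log2 change was -0.40, with 11 below 0, against -0.01 over all genes. Leaving out control clone 1 or 2 gave medians of -0.04 and -0.68, and leaving out the first or second E7 library gave -0.66 and -0.18.
H1-4, a linker histone gene, had 0.690 and 0.573 CPM in E7 libraries (24 and 18 counts), against 2.25 and 3.89 CPM in controls (64 and 103 counts). The groups do not overlap, and the log2 change was -2.35 with a standard error of 0.44 (edgeR adjusted p = 0.213, DESeq2 0.00686). H2AC25 had 14.2 and 16.8 CPM in E7 libraries, against 27.7 and 27.7 CPM in controls. Its log2 change was -0.91 with a standard error of 0.20 (edgeR adjusted p = 0.23, DESeq2 0.0375).
H2BC12 had 40.1 and 32.4 CPM in E7 libraries, against 74.6 and 42.1 CPM in controls, with a log2 change of -0.74 and a standard error of 0.30. Its 2 controls lay further apart than the nearer control from the E7 libraries. H4C11, the second by size of change, had 0.632 and 0.382 CPM in E7 libraries, against 0.211 and 0.302 CPM, with a log2 change of 0.92 and a standard error of 0.55.

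For H1-2 and H2AC6 the groups overlapped. H1-2 had 19.2 and 11.6 CPM in E7 libraries, against 22.8 and 15.8 CPM in controls. H2AC6 had 6.44 and 4.77 CPM, against 6.67 and 6.12 CPM. H2AC11 had 3.48 and 2.55 CPM, against 6.67 and 2.98 CPM (log2 change -0.73).
The remaining genes varied between controls as much as between groups. H2AC20 had 1.18 and 1.43 CPM in E7 libraries, against 1.09 and 2.49 CPM in controls (log2 change -0.53), and H2AC13 had 0.604 and 0.350 CPM, against 0.843 and 0.377 CPM (-0.41). H2BC11 had 2.82 and 2.45 CPM in E7 libraries, against 4.46 and 2.42 CPM (-0.44), and H2BC21 had 3.79 and 3.28 CPM, against 5.90 and 2.87 CPM (-0.36). H4C8 had 3.74 and 2.74 CPM in E7 libraries, against 4.46 and 2.98 CPM (-0.26).
For H2BC5 and H2BC26 the change was above 0. H2BC5 had 3.39 and 3.72 CPM in E7 libraries, against 3.93 and 2.23 CPM in controls (0.15), and H2BC26 had 0.862 and 0.318 CPM, against 0.527 and 0.528 CPM (0.10). None of these passed. SLBP, NPAT, PCNA and H2AJ changed by -0.42, 0.35, -0.83 and -0.27, and no gene of the other lists passed, apart from NEFM of the HEK293 markers, which rose by 5.54. The 2 listed RNAs without a poly(A) tail, SNORD3A and SNORA73B, summed to 0.661 to 1.37 CPM in E7 libraries and 6.46 to 10.3 CPM in controls. The 22 S phase genes summed to 4467 to 4673 CPM in E7 libraries and 4870 to 5346 CPM in controls. Of the epithelial list 5 genes are listed and none passed, with a sum of 1018 to 1163 CPM in E7 libraries and 447 to 731 CPM in controls. The 5 listed HEK293 markers summed to 1154 to 1203 CPM in E7 libraries and 1011 to 1109 CPM in controls. The part of these in the histone values was not tested.

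Whether the E7 change differed between the lines was tested itself. None of the 14 genes passed, where 3.38% of 11849 genes did in edgeR. A single one, H1-4, had an unadjusted edgeR p under 0.05, as did 2264 of all 11849 genes. Its difference was -1.81 (log2, HEK293 minus HCT116, standard error 0.60, edgeR adjusted p = 0.154). DESeq2 called none of the 14, where it called 9.88% of all genes. The median difference of the 14 was 0.02, and it moved with single libraries. It was 0.41 and 0.15 without HEK293 control clone 1 or 2, and -0.18 and 0.20 without the first or second HEK293 E7 library. H4C8 and H4C11 were at or near 0 counts in HCT116, so no difference is given for them. Of the other lists, ZNF391 was higher by 2.32 and RBBP7, a histone chaperone, lower by 0.98.

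**Figure D4:**
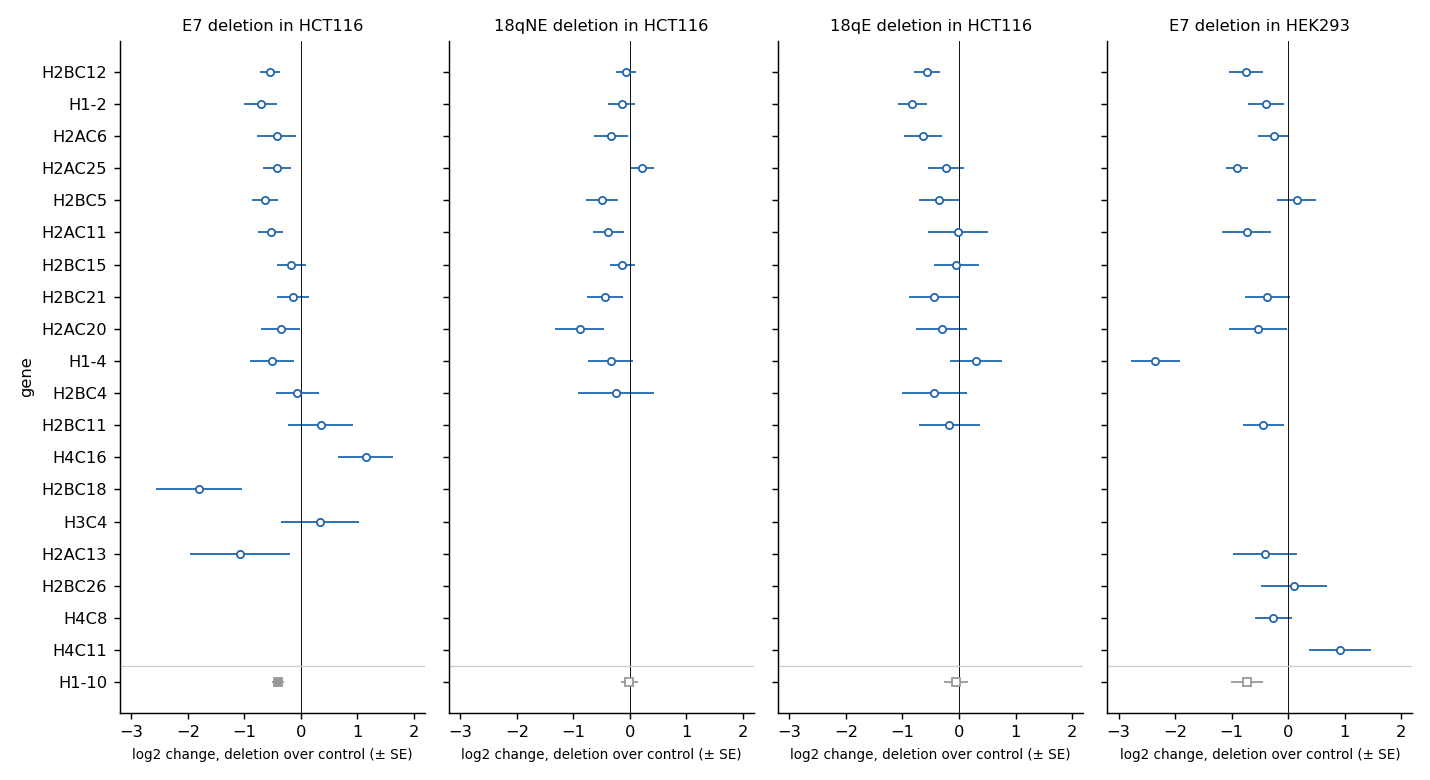
Log2 change of each tested histone gene, deletion over control, with its standard error, in the 4 deletion comparisons, ordered by mean level in HCT116. Circles are replication-dependent genes and the square in the bottom row is H1-10, filled where the edgeR adjusted p is under 0.05. No circle is filled, and in each comparison most circles lie left of 0, at medians of -0.42, -0.33, -0.33 and -0.40.

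Most calls within the family came from the extraction days. Over the 12 libraries of the 4 control clones, with the clone as a term, day B and day C were each compared with day A. Day labels name extractions, and growth and handling on a day cannot be told apart from the day. Summed CPM averaged 45.6 ± 5.89 on day A, 28.9 ± 4.38 on day B and 34.2 ± 1.90 on day C (SD, n = 4 clones each). In all 4 clones day A was above day B and above day C.
Of 10 genes tested, 4 fell on day B, while of all 14988 genes 38.5% passed in edgeR and 19.4% fell. On day C, 4 fell and 1 rose, while of all genes 32.2% passed, 16.6% falling and 15.6% rising. The totals of calls in the family, 4 and 5 of 10, are near those shares. The median log2 change of the 10 was -0.50 on day B and -0.31 on day C, against -0.01 over all genes on both.

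H2AC6 had 4.43, 5.40, 11.6 and 6.43 CPM in control clones 1 to 4 on day A. It had 2.40, 2.03, 2.21 and 4.57 CPM on day B and 2.33, 2.91, 2.58 and 2.65 CPM on day C. Every clone was highest on day A, clone 3 by the most. It fell by 1.23 (standard error 0.25, edgeR adjusted p = 0.00151) on day B and by 1.32 (0.25, p = 0.00151) on day C, on the log2 scale.
H2BC5 had 3.77, 4.85, 6.88 and 5.97 CPM on day A. It had 2.33, 2.40, 2.12 and 3.24 CPM on day B and 3.24, 2.45, 2.68 and 2.73 CPM on day C. No library of day B or C reached the lowest of day A. The fall was 1.02 on day B and 0.90 on day C (edgeR adjusted p = 0.000892 and 0.00273).
H2AC11 had 2.90, 2.56, 3.07 and 2.89 CPM on day A. It had 1.24, 1.80, 1.53 and 1.91 CPM on day B and 1.32, 1.30, 1.09 and 0.937 CPM on day C. Day A overlaps neither, and it fell by 0.76 on day B and by 1.25 on day C (edgeR adjusted p = 0.00957 and 0.000975).
H2BC12 had 13.6, 11.5, 12.6 and 15.9 CPM on day A. It had 7.60, 6.38, 8.41 and 11.2 CPM on day B and 9.52, 9.57, 7.95 and 9.92 CPM on day C. Again day A stood clear of both, and it fell by 0.63 on day B and by 0.48 on day C (edgeR adjusted p = 0.00152 and 0.00965).

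Linker histone genes did not share that order. H1-2 had 5.88, 4.43, 7.17 and 6.81 CPM in control clones 1 to 4 on day A. It had 4.26, 3.98, 5.60 and 5.32 CPM on day B and 6.18, 4.82, 9.44 and 8.04 CPM on day C, so all 4 clones were highest on day C. Its log2 changes of -0.28 on day B and 0.26 on day C did not pass, and neither did that of day C against day B (0.54, standard error 0.13, edgeR adjusted p = 0.152). H1-4 had 1.16, 0.485, 0.512 and 0.746 CPM on day A, 0.388, 1.05, 0.934 and 0.332 CPM on day B and 1.92, 1.84, 1.19 and 0.859 CPM on day C. Against day A it rose on day C by 1.05 (standard error 0.37, edgeR adjusted p = 0.0426), a call lost in 5 of the 8 alternatives. H2AC25, H2BC15, H2BC21 and H2AC20 passed on neither day.
The largest other changes of day C against day B were 1.08 in H1-4 and -0.49 in H2AC11. Day C against day B gave no call among the 10 genes and none in DESeq2, with 0.0334% of all genes passing in edgeR. An unadjusted edgeR p under 0.05 was reached by 2 of the 10, and by 1900 of all 14988 genes. On day D, control clones 1 and 2 had 48.7 and 46.3 summed CPM, against 25.3 to 42.2 CPM in the same clones on days A to C. None of 11 genes passed there in edgeR (0.453% of 14782 genes did). An unadjusted edgeR p under 0.05 was reached by 3 of the 11, and by 1945 of all 14782 genes. DESeq2 called 1 of the 11, where it called 2.24% of all genes. H1-2, with a log2 change of 0.97 and a standard error of 0.18, had an edgeR adjusted p of 0.0531 and a DESeq2 one of 0.0022. H2BC12 and H2AC25 changed by 0.80 and 0.77. Day D libraries were also sequenced more deeply than those of days A to C. Reads aligned at several places, which stay uncounted, were 18.8% and 15.6% in control clones 1 and 2 on day D. In the same clones they were 12.6% to 13.8% on days A to C. The part of either in the histone values was not tested.

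Among the 4 control clones, over their 3 days, 1 of 10 genes differed, where 7.8% of 14988 genes did in edgeR. This was H1-2 (edgeR adjusted p = 0.0172), which averaged 5.44 ± 1.03, 4.41 ± 0.424, 7.41 ± 1.93 and 6.72 ± 1.37 CPM in clones 1 to 4 (SD over 3 days). The call was lost without control clone 2 or 3 and in DESeq2. H2BC12 averaged 10.3, 9.14, 9.65 and 12.3 CPM in the 4 clones and did not pass.

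Genes of the S phase moved the other way from the fallen histone genes across days. Of 22 S phase genes, 14 rose on day B (63.6%) and 15 on day C (68.2%) against day A, and none fell. Over all 14988 genes tested, 2859 rose and 2914 fell on day B, and 2341 rose and 2490 fell on day C. RRM2, a subunit of ribonucleotide reductase, rose by 0.64 on day B and 0.72 on day C, CCNA2, cyclin A, by 0.72 and 0.63, and PCNA, the sliding clamp of DNA polymerases, by 0.32 and 0.42. The list summed to 3976 to 5063 CPM on day A, 5167 to 5561 CPM on day B and 5342 to 5696 CPM on day C. Of 12 genes of cell cycle exit, 9 fell on each day (75%) and none rose. CCNG2 fell by 1.83 on day B and 1.48 on day C, CDKN1C by 1.17 and 1.07, BTG2 by 1.11 and 0.68, and CDKN1A, which encodes the CDK inhibitor p21, by 0.95 and 0.71. That list summed to 444 to 620 CPM on day A, 319 to 358 CPM on day B and 343 to 392 CPM on day C. The part of either list in the histone values was not tested.

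Of 18 genes of histone mRNA processing, 10 rose and 2 fell on day B, and 7 rose and 1 fell on day C. The shares called were 66.7% and 44.4%, where 38.5% and 32.2% of all genes passed in edgeR. CSTF2, a cleavage stimulation factor, rose by 0.56 and 0.64, SLBP by 0.31 on day B, with 0.22 on day C not passing (edgeR adjusted p = 0.0766), and MBTD1 fell by 0.37 and 0.46. NPAT changed by 0.02 and 0.23 and did not pass. Of 16 histone chaperones, 8 rose on day B (50%) and 7 on day C (43.8%), and none fell. HJURP rose by 0.72 and 0.79, IPO4 by 0.64 and 0.55 and TONSL by 0.62 and 0.42.
Replacement histones went in both directions. CENPA, the centromeric H3, rose by 0.58 and 0.45, H2AX, which marks DNA breaks, by 0.37 and 0.29, and MACROH2A1 by 0.34 and 0.30, while H2AJ fell by 0.36 and 0.39 and H3-3A by 0.33 and 0.31. Of 14 tested non-histone neighbours on chromosome 6, 8 fell and 1 rose on day B (64.3% called), and 5 fell and 1 rose on day C (42.9%). BTN3A1 fell by 0.88 and 0.58, TRIM38 by 0.83 and 0.51, and ABT1 rose by 0.31 and 0.25. KRT8 of the epithelial markers rose by 0.43 and 0.54, and CDH1 fell by 0.48 on day B, while the list summed to 3827 to 4635, 4709 to 5518 and 4606 to 6451 CPM on days A, B and C. PAX2 of the HEK293 markers fell by 0.34 and 0.38, with that list at 91.4 to 110, 82.1 to 96.3 and 79.6 to 94.4 CPM, and COL1A1 fell by 0.41 on day C. The part of these in the histone values was not tested.

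**Figure D5:**
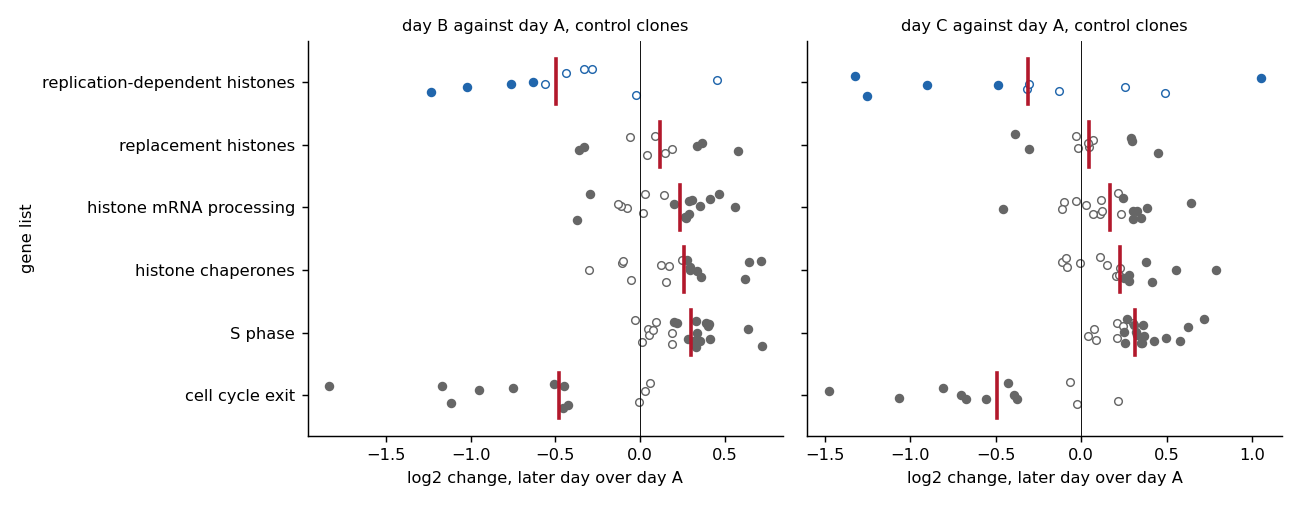
Log2 change on day B and on day C, each over day A, of the tested genes of 6 lists in the 4 control clones, filled where the edgeR adjusted p is under 0.05, with the list's median as a bar. H2AC6, H2BC5, H2AC11 and H2BC12 lie left of 0 on both days, S phase medians are 0.30 and 0.31, and cell cycle exit medians are -0.48 and -0.49.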

How the data were processed

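RNA was measured by single-end sequencing of TruSeq v2 libraries, per the labels' protocols, a kit that selects poly(A) RNA. The authors' deposited files hold raw counts of reads per gene, and HTSeq 0.6.1, TopHat2, Partek 3 and the build hg19 stand in the submitters' processing notes. The strand setting and the rule by which the HEK293 files list 11887 genes were not stated anywhere in the material at hand. In HCT116, reads outside genes came to 6.34% to 14.3% and ambiguous reads to 2.86% to 3.60%. Reads aligned at several places came to 12.3% to 13.8% on days A to C and 15.6% to 24.8% on day D. The base of these percentages is the gene counts plus all reads that HTSeq set apart from genes. Reads set apart in this way stayed out of all totals and tests. HTSeq leaves out reads with several alignments, which lowers the counts of near-identical histone genes.

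Symbols came from RefSeq's table for GRCh38.p14, which named 51996 of the 57820 IDs. CPM scales a gene's counts by the library's gene counts, and, in values that set HCT116 beside HEK293, by the counts of the listed genes, which hold 95.6% to 97.0% of HCT116 counts. Genes were tested with edgeR 4.0.16 (R 4.3.3, limma 3.58.1): TMM scaling, filterByExpr with a minimum count of 10, the quasi-likelihood F test, 2-sided, and Benjamini-Hochberg adjustment over all genes tested, with a threshold of 0.05. The standard error is the log2 change divided by the root of F. For E7 in HCT116 and for 18qNE, libraries of a clone were summed, and the spread of the lone E7 clone was taken to equal that of the controls. The day comparisons held the clone as a term. DESeq2 1.42.0, other scalings, no filter, blocks and leaving out each clone or day were alternatives, and the fits were checked on simulated data. E7 and control libraries share extraction days by their labels, and those of the same day deviated together (correlations of 0.575, 0.286 and 0.367 on days A, B and C). The labels do not say that samples came from separate cultures, so p-values measure the spread between these samples, which may be technical. Genes named with values were the 12 members with the highest mean CPM in HCT116, those called or, with under 3 calls, the 3 with the largest changes, those listed in HEK293, and of the other lists up to 4 called genes per direction, beside SLBP, NPAT, H2AJ and PCNA. A gene of the rule and lists is not reported here. The members and lists were chosen with earlier results of these data known.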

Additional observations from a re-analysis of the deposited data

Results flagged for a closer look

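Among 42 sets of 4 control libraries of the same day, 2 held a library far from the other 3, by a gap above Dixon's 95% critical value, which chance gives in about 1 in 20 sets. H2AC6 had 4.57 CPM in control clone 4 on day B, where the other 3 clones had 2.03 to 2.40 CPM. H2BC21, an H2B gene, had 2.13 CPM in control clone 1 on day C, where the others had 0.689 to 0.703 CPM.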

How the results depend on the processing

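No change of sign occurred among the called results, and every ratio of summed levels moved by less than the spread between libraries. Calls among the histone genes for E7 in HCT116, 0 in the fit reported, became 1 of 14 with DESeq2 and 3 of 10 with libraries in a day block, where 17.7% and 34.8% of all genes were called. For E7 in HEK293 the 0 became 2 with DESeq2, 2 with the replicate block, 3 without control clone 1 and 4 without control clone 2, a range of 0 to 4 with single libraries left out. Over all genes, calls there numbered 3, against 454 with DESeq2, 670 with the block, 6210 without control clone 1 and 1914 without control clone 2. The difference between the lines gave 0 to 2 calls with single clones or libraries left out, the 2 without HEK293 control clone 1, where 39.7% of all genes were called. Day D gave 1 call with DESeq2 and 2 without the filter. Among control clones the 1 call became 0 with DESeq2 and 2 without the filter, with 0 to 1 when a clone was left out and 0 without clone 2 or 3. The cause of these shifts was not tested. Clone and library numbers name samples only, with correlations of deviations between same-numbered samples of -0.178 to 0.0599 in 18qNE, 0.0437 in 18qE and 0.331 in HEK293. The replicate block left 18qNE and 18qE at 0 calls.

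Of the single-gene values, 1345 kept their side of the threshold under an alternative, 33 passed only there and 23 passed only in the fit reported. Direction was compared only for genes called in the fit reported, so uncalled values among the 1345 may have changed sign. H2AC6, H2BC5 and H2BC12 fell on days B and C under all 8 alternatives, with H2AC6 on day B between -1.55 and -0.84. H2AC11 lost its day B call with DESeq2 (adjusted p = 0.0577) and without control clone 3 (edgeR adjusted p = 0.0517).

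Depth limits most of the family: 21 of 33 genes had under 100 counts over 22 HCT116 libraries, and for them absence of a call says little. The kit selects polyadenylated transcripts, but no read was examined for its tail, and listed RNAs without a tail still summed to 1.32 to 2.47 CPM in HCT116. Some carry-over of stem-loop histone mRNA therefore cannot be told apart, and its level was not measured. E7 in HCT116 rests on a single clone.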
